A study of Mus musculus with 103 samples.

Results

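Genes that bring glucose into muscle stem cells and break it down are described here across age. The set has 35 members, picked by gene symbol: glucose transporters, the enzymes of glycolysis, lactate enzymes and transporters, regulators of pyruvate entry into mitochondria, Hif1a and Angptl4. All 35 were found among the 43283 genes of the bulk table and the 43282 genes of the table of single-cell wells. The RNA came from untreated C57BL/6 mice, labelled as muscle stem cells in the source field and called myoblasts in the design text. Each bulk library was made from amplified RNA of a separate mouse: 3 were young, 2 were middle-aged (12 and 13 months) and 3 were old (24 months). The young bulk mice are 3 months old in the age field and 2 months in the sample description. Wells came from 1 young mouse of 3 months (64 wells) and 1 old mouse of 24 months (31 wells). The labels name no transgene or deletion in any group. A culture protocol with fibroblast growth factor 2 is described, but the sources used here leave unsaid at what stage RNA was collected.

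Glucose enters cells through transporters of the Slc2a (GLUT) family and is trapped by hexokinase as glucose 6-phosphate. Glycolysis then turns it into pyruvate, which either becomes lactate or enters mitochondria through pyruvate dehydrogenase, an enzyme that the Pdk kinases switch off. Muscle stem cells at rest rely largely on fatty acid oxidation, and their glycolysis increases when they are activated. Hypoxia-inducible factor 1, whose oxygen-sensitive part is encoded by Hif1a, induces many genes of this pathway by binding the cores ACGTG or GCGTG.

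Promoter sequence was matched for 32 of the 35 members (48 windows of 250 bases upstream of a start site, from RefSeq, GRCm38.p6). Angptl4, Slc2a3 and Slc2a4 had no entry. On either strand, ACGTG was in 39.6% of member windows and in 16.6% of all 32851 windows of the same length. GCGTG was in 54.2% and 28.2%. The palindrome CACGTG, which contains ACGTG and is the core read by factors such as ChREBP, was in 14.6% and 6.02%. GTAAACA, a core for FOXO factors, was in 2.08% and 3.17%, and GGGCGG, a core for SP1, in 45.8% and 32.7%. Windows were not matched for base composition. A match is a run of letters, not a bound site.

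Stretches of these windows that lie outside annotated exons are shown for Slc2a1 and Gpi1, whose levels did not overlap between young and later ages, for Hk2 and Pdk4, which did not overlap between young and middle-aged libraries, and for Ldha, which had the most ACGTG matches of the printed windows. They read 5′ to 3′ on the gene's strand. Capitals mark ACGTG or GCGTG and their reverse complements CACGT and CACGC.

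Slc2a1: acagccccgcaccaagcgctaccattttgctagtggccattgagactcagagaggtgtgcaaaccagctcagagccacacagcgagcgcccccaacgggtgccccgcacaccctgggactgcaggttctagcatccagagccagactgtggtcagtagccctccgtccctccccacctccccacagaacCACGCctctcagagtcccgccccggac

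Hk2: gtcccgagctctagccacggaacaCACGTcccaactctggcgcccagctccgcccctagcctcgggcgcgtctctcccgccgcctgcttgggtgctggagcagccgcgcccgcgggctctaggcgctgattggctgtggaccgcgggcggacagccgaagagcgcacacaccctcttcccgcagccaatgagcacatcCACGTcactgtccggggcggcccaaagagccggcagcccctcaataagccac

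Gpi1: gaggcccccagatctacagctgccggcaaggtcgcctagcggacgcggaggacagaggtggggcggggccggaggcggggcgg

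Pdk4: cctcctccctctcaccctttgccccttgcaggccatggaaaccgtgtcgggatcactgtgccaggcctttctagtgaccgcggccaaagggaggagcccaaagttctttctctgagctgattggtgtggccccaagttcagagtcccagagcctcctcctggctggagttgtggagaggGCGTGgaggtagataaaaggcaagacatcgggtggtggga

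Ldha: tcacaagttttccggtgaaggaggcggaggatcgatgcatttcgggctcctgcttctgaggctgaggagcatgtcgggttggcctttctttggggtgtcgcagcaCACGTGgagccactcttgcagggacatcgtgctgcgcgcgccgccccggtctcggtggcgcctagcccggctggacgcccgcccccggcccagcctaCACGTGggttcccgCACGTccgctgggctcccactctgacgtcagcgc

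The Slc2a1 stretch (chr4:119108495-119108710, plus strand) holds 1 GCGTG and ends at an annotated exon. The full Slc2a1 window, counted above, also holds 1 ACGTG, which runs into that exon and is not shown. Hk2 (chr6:82774455-82774704, minus strand) holds 2 ACGTG. The short Gpi1 stretch (chr7:34230337-34230419, minus strand) holds neither core, and Pdk4 (chr6:5496310-5496528, minus strand) holds 1 GCGTG. Ldha (chr7:46845554-46845803, plus strand) holds 5 matches to ACGTG, since each of its CACGTG palindromes counts on both strands. A second Ldha window, at another start site (chr7:46846832-46847081, plus strand), holds 0 ACGTG and 1 GCGTG and is not shown. The level of Ldha overlapped at every age, as given below, and core counts were not tested against levels.

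Levels are in TPM, a transcript's share of its library, which are scaled per length and so can be compared between genes. Read depth cannot be taken from them. Between 12849 and 17114 genes reached 1 TPM per bulk library, and mitochondrially encoded RNA made up 32.67% to 46.5% of TPM. Of the members, 22 were above 0 in all 8 libraries, 12 were listed at 0 in 1 to 7 libraries, and Aldoc, an aldolase of brain, was listed at 0 in all 8. Between 1 and 10 members were listed at 0 per library, 10 of them in young library 2. Pgk1, an enzyme of the main path of glycolysis, was listed at 0 in young library 3, where near-identical copies of it held 82 TPM. A 0 is therefore not read as absence. Of the markers of the labelled cell type, Pax7, the factor that defines muscle stem cells, lay between 127 and 316 TPM in all 8 libraries. It had 248 to 316 TPM in young, 231 and 127 TPM in the middle-aged pair, and 185 to 246 TPM in the old libraries. Every later library thus lay below every young one.

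Markers of several other cell types differed with age as well. The summed TPM of 9 Schwann cell markers was 73.4 to 163 in young, 184 to 384 in the middle-aged and 420 to 1372 in old libraries, and 9 of 9 were higher in old than in young on average. Fibro-adipogenic markers summed to 576 to 633, 519 to 626 and 642 to 1171 TPM, with Pi16 listed at 0 throughout. Within that list, Mfap5, Dcn and Smoc2 lay higher and Col3a1 lower in all old than in all young libraries. Endothelial markers summed to 11.6 to 15, 34.3 to 76.6 and 25.4 to 35.9 TPM, with Egfl7 and Tie1 listed at 0 in all 8. Tenocyte markers summed to 9.76 to 29.1, 64.4 to 91.4 and 68.7 to 81.5 TPM, so both later ages lay above young. Thbs4 and Fmod did so as single genes, whereas Scx, Tnmd and Mkx overlapped young at both later ages. Macrophage markers summed to 26.8 to 47.1, 78.0 to 108 and 28.4 to 59.6 TPM, highest in the middle-aged pair, with C1qa listed at 0 throughout. Most of that middle-aged sum was Lyz2, at 78.65 and 58.24 TPM. Lyz2 and Csf1r lay above every young library there. Ptprc of the same list went the other way and lay below every young library, with a middle-aged mean of 4.52 against 13.96 TPM. The smooth muscle gene Acta2 had 90.8 to 116, 214 and 265, and 143 to 510.1 TPM. Myh11 had 12.1 to 15.6, 53.2 and 71.7, and 19.8 to 110 TPM. Both, and Cspg4 of the same list, were above young at both later ages. The sum of that list, 433 to 577, 475 to 643 and 391 to 823 TPM, overlapped. Rgs5 and Notch3, also in that list, were lower than young on average at both later ages. Their group means were 315.3, 213.6 and 189.5 TPM for Rgs5, and 57.6, 32.95 and 50.7 TPM for Notch3. Notch3 lay below all young libraries in the middle-aged pair and overlapped them in old, while Rgs5 overlapped at both ages. Adipocyte markers summed to 9.52 to 23.5, 8.44 to 40.1 and 7.74 to 15.4 TPM, and did not stand higher in old libraries. The 7 muscle stem cell markers summed to 1605 to 2222, 1007 to 1762 and 934 to 1583 TPM. The part of these markers in the results below was not tested. In bulk libraries, fewer cells of a type and less RNA per cell cannot be told apart.

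The clearest differences with age were in 2 members: the glucose transporter Slc2a1 and the secreted protein Angptl4 were higher at each later age with no overlap between the 3 groups. Gpi1, Slc2a3, Aldoa and Eno2 were higher in all 3 old than in all 3 young libraries. Lactate dehydrogenases, Gapdh and pyruvate kinase overlapped between old and young. None of these differences passed the test over all genes.

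On log2(TPM + 1), limma was fitted to the 22492 genes whose mean reached 1 TPM, which included 34 of the 35 members. On that scale the differences of low genes are understated. Old against young, limma called 0 of the 34 members at an adjusted p under 0.05, as it called 0% of all tested genes. At unadjusted p under 0.05, 6 members were higher and 0 lower, against 3.72% and 2.17% of all genes. The same number, 6 of 34 (17.6%), lay higher in every old than in every young library, against 5.85% of all genes, and 0 lay lower in every old library, against 4.16%. By the sign of the difference alone, 22 members were higher and 12 lower, against 49.6% of all genes higher, with a median of 0.28 log2 units beside 0 over all tested genes. Leaving out young library 3 took that median to 0.04, old library 3 to 0.12, and young library 2 to 0.41. Without 1 library the non-overlapping members numbered 6 to 9 higher and 0 to 4 lower, with 9 higher without old library 2 (9.29% of all genes then did so) and 4 lower without young library 2 (9.13%). Without young library 3 or old library 1, 2 members lay lower (9.25% and 5.33% of all genes), and without young library 1 or old library 3, 1 did (8.91% and 7.53%).

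Against young, limma called 0 of 34 members in middle-aged libraries, and 0.00445% of all genes (1 gene, no member). At unadjusted p under 0.05, 5 members were higher and 3 lower, against 5.5% and 2.28% of all genes. Both middle-aged libraries lay above all young ones for 9 members (26.5%), against 12.6% of all genes, and below them for 5 (14.7%), against 5.37%. With fewer libraries such separation is reached more easily over all genes. Without middle-aged library 2, 18 members lay higher, against 36.4% of all genes, and without middle-aged library 1, 14 lay higher and 12 lower, against 26.2% and 16.5%. Old against middle-aged, 0 of 34 members were called (0% of all genes), with 1 higher and 1 lower at unadjusted p under 0.05, against 2.34% and 3.85%. Here 7 members lay higher without overlap and 3 lower, against 7.15% and 12.8% of all genes. Without middle-aged library 1 these were 15 and 10, against 20.9% and 26.8% of all genes. Without middle-aged library 2, 8 lay lower (38.4% of all genes), and without old library 3, 7 did (17.1%). By sign alone, 23 members were higher middle-aged against young (55.2% of all genes) and 15 old against middle-aged (42.4%). The 3 comparisons share libraries, so they are not independent of each other.

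**Figure D1:**
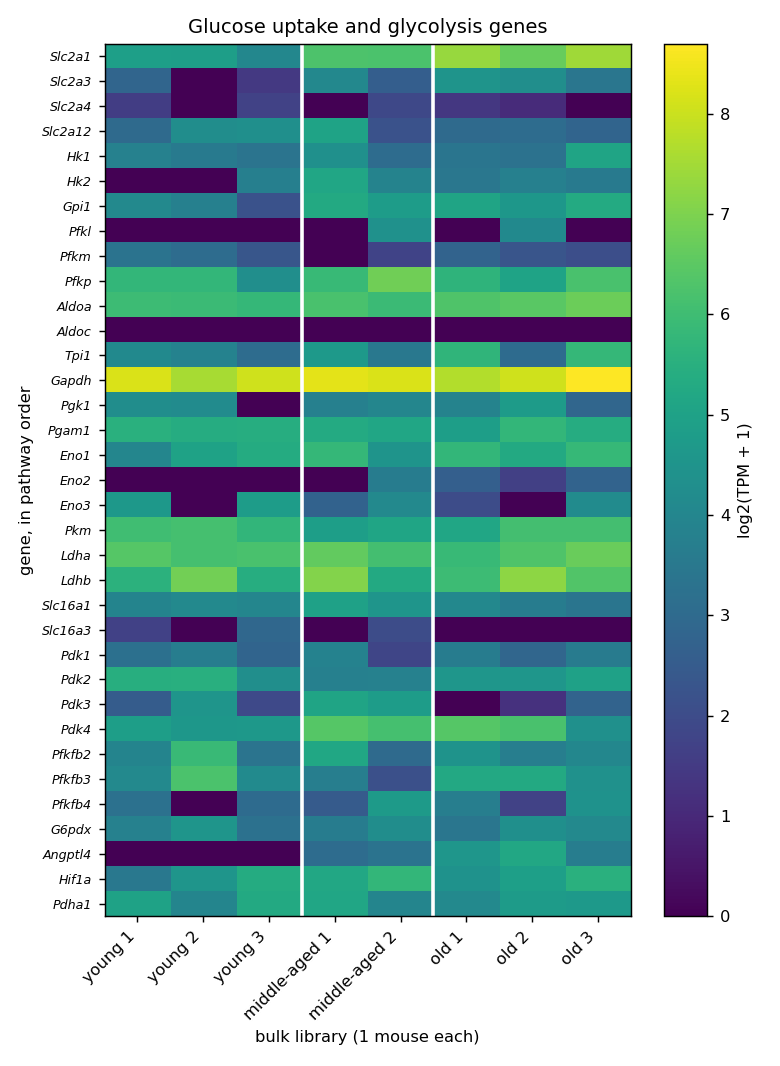
Level of each of the 35 genes (rows, in pathway order) in each of the 8 bulk libraries (columns), as log2(TPM + 1). The row of Slc2a1 brightens from young through middle-aged to old, Gapdh is the brightest row throughout, and the darkest cells are values listed at 0.

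Of the 4 glucose transporters, Slc2a1 and Slc2a3 were higher in old than in young libraries without overlap, and Slc2a4 and Slc2a12 were not. Slc2a1 encodes GLUT1, the transporter for basal glucose uptake in most cells (chromosome 4, 119108711 to 119137983, on the plus strand). It had 29.3, 28.2 and 15.4 TPM in young, 76.2 and 73.8 TPM in middle-aged, and 164, 101 and 175 TPM in the old libraries. All old libraries lay above both middle-aged ones, and these lay above all young ones. Old minus young, the difference was 2.56 log2 units with SE 0.39, a 5.88-fold step whose 95% interval ran from 1.69 to 3.42 log2 units. By limma the unadjusted p was 5.35e-05, the sixth smallest of all tested genes, and the adjusted p was 0.172. Over the alternatives the adjusted p ranged from 0.0515 to 0.702 and the difference from 2.27 to 2.80. With 20 ways to split the libraries, a two-sided exact permutation test reached its smallest possible value, p = 0.1. Middle minus young, the difference was 1.64 log2 units (SE 0.44, adjusted p = 0.361), and old minus middle it was 0.92 (SE 0.44, adjusted p = 0.724).

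Among the 35 members, Slc2a1 ranked 10, 12 and 16 by level in the young libraries, 5 and 3 in the middle-aged ones and 2, 3 and 2 in the old ones. It made up 1.75% to 2.95% of the members' summed TPM in young, 5.51% and 6.49% in the middle-aged, and 7.9% to 14.04% in old libraries. By its rank and its share alike, it was a minor member in young libraries and a major one in old libraries.

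Slc2a3, the high-affinity transporter GLUT3, had 6.16, 0 and 1.75 TPM in young, 15.7 and 5.12 TPM in the middle-aged pair, and 21.7, 18.8 and 9.74 TPM in the old libraries. Old libraries lay above the young ones, and the middle-aged pair overlapped both. The difference old minus young was 2.65 log2 units (SE 0.85, adjusted p = 0.728), and middle minus young it was 1.91 (SE 0.95, adjusted p = 0.626). Slc2a12, a transporter found in muscle and fat, had 6.99, 18.4 and 19 TPM in young, 31.7 and 3.60 TPM in the middle-aged pair, and 7.04, 7.33 and 5.97 TPM in the old libraries. Its groups overlapped through young library 1 (old minus young -0.91 log2 units, SE 0.77, adjusted p = 0.839), and its locus overlaps Tbpl1. Slc2a4, the insulin-responsive GLUT4 of muscle fibres, stayed at or below 2.70 TPM in every library.

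Within the family, Slc2a1 made up 66.0%, 60.5% and 40.2% of the 4 transporters' summed TPM in young, 61.6% and 86.6% in the middle-aged, and 84.4%, 78.8% and 91.7% in old libraries. Slc2a12 went from 15.7%, 39.5% and 49.4% in young to 3.62%, 5.71% and 3.14% in old libraries. Neither share overlapped between young and old. The sum of the 4 transporters was 43.2 ± 4.25 TPM in young (mean ± SD, n = 3), 104 ± 27.1 in the middle-aged (n = 2) and 171 ± 37.1 in old (n = 3) libraries.

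**Figure D2:**
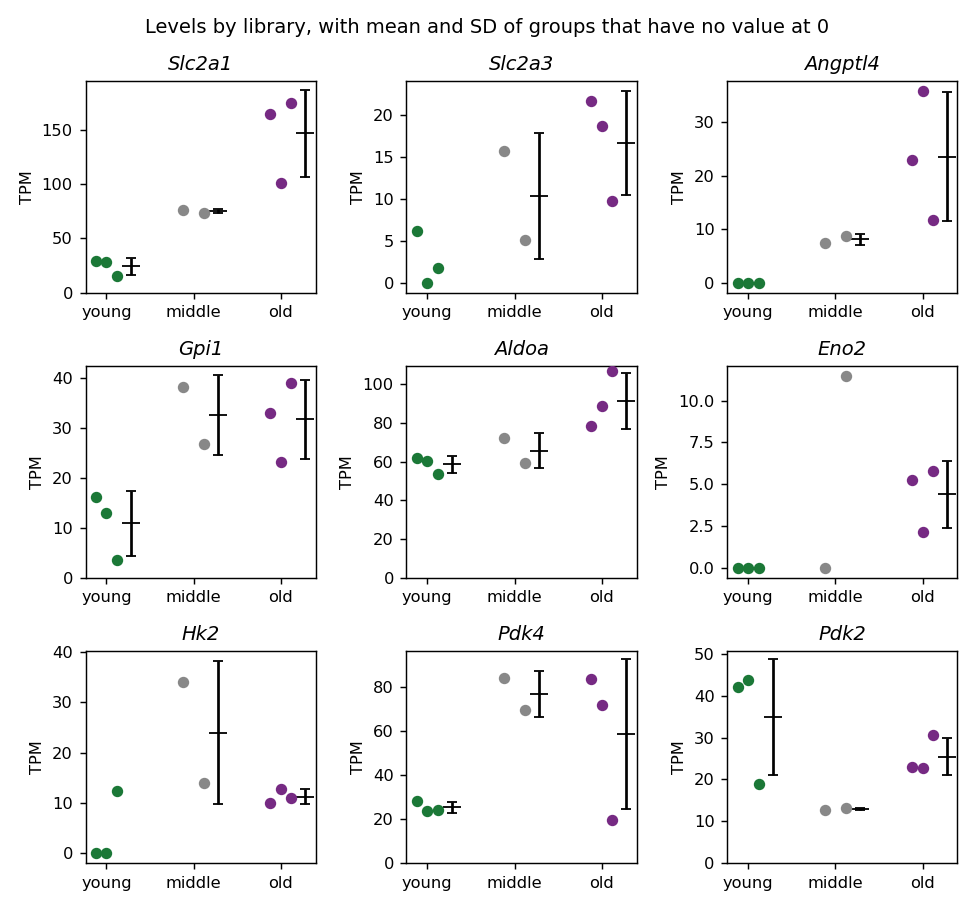
TPM of 9 genes in each bulk library (points, 3 young, 2 middle-aged, 3 old), with the mean and SD (bar) of groups that have no value at 0. Slc2a1 and Angptl4 separate all 3 groups, whereas Hk2 and Pdk4 overlap between young and old, through young library 3 and old library 3.

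Hexokinases trap glucose inside the cell by phosphorylation. Hk1, the constitutive form, had 13.2, 10.7 and 9.20 TPM in young, 19.4 and 7.33 TPM in the middle-aged pair, and 9.30, 8.75 and 33 TPM in the old libraries. Its groups overlapped, and the difference of 0.34 log2 units (SE 0.65, adjusted p = 0.95) was -0.25 without old library 3. Hk2, the inducible form of muscle, had 0, 0 and 12.4 TPM in young, 34.1 and 13.9 TPM in the middle-aged pair, and 10.01, 12.8 and 10.9 TPM in the old libraries. Both middle-aged libraries were above all young ones, while young library 3 reached into the old range. The difference old minus young was 2.36 log2 units (SE 1, adjusted p = 0.831), and middle minus young it was 3.27 (SE 1.11, adjusted p = 0.456). Hk2 made up 0%, 0% and 57.5% of hexokinase TPM in young, 63.7% and 65.5% in the middle-aged and 51.8%, 59.5% and 24.8% in old libraries.

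Gpi1 converts glucose 6-phosphate to fructose 6-phosphate, the step after hexokinase. It had 16.2, 12.9 and 3.52 TPM in young, 38.2 and 26.9 TPM in the middle-aged pair, and 33, 23.2 and 38.9 TPM in the old libraries. Every middle-aged and old library lay above every young one, and the later ages overlapped each other. The difference was 1.64 log2 units old minus young (SE 0.58, 3.12-fold, limma adjusted p = 0.758) and 1.69 middle minus young (SE 0.65, adjusted p = 0.553). A near-identical copy, Gm1840, had 8.94, 0 and 4.30 TPM in young, 17.3 and 5.13 TPM in the middle-aged pair, and 21.9, 12.6 and 11.5 TPM in the old ones, and reads may be split between them.

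Phosphofructokinase makes the committed step of glycolysis. Pfkp, the platelet-type form, was its main transcript in every library, at 61.03% to 100% of the 3 forms' TPM. It had 53.5, 52.8 and 18.5 TPM in young, 57 and 112 TPM in the middle-aged pair, and 49.6, 31.8 and 71.8 TPM in the old libraries. Both middle-aged libraries lay above the young ones (1.08 log2 units, SE 0.58, adjusted p = 0.626). Old and young overlapped (0.36 log2 units, SE 0.52, adjusted p = 0.907, and -0.13 without young library 3). Pfkm, the muscle form, had 8.82, 7.38 and 4.02 TPM in young, 0 and 2.40 TPM in the middle-aged pair, and 5.88, 3.95 and 3.22 TPM in the old libraries. Middle-aged libraries were below the others, at -2.01 log2 units against young (SE 0.91, adjusted p = 0.626). Pfkl, the liver form, was listed above 0 only in middle-aged library 2 (20.1 TPM) and old library 2 (16.3 TPM). The loci of Pfkp and Pfkm overlap Pitrm1 and Senp1 on the other strand, and the sources used here do not say whether counting used strand.

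The bifunctional Pfkfb enzymes set fructose 2,6-bisphosphate, the strongest activator of phosphofructokinase. Pfkfb3, a form that favours glycolysis, had 16.1, 74.9 and 16.9 TPM in young, 12.1 and 3.32 TPM in the middle-aged pair, and 37, 38.1 and 20.0 TPM in the old libraries. Middle-aged libraries lay below all others: -1.92 log2 units against young (SE 0.77, adjusted p = 0.578), and old minus middle 2.06 (SE 0.77, adjusted p = 0.724). Old and young overlapped because young library 2 was the highest of all (0.14 log2 units, SE 0.69, adjusted p = 1). That difference was -0.23 without young library 1, -0.20 without young library 3 and -0.02 without old library 2. Pfkfb2, the heart form, had 14.2, 58 and 9.22 TPM in young, 35.2 and 7.12 TPM in the middle-aged pair, and 20.9, 12.3 and 15.3 TPM in the old libraries. It too was highest in young library 2, and its difference of -0.32 log2 units (SE 0.76, adjusted p = 0.975) was 0.43 without it. Pfkfb4 had 8.45, 0 and 7.24 TPM in young, 4.65 and 26 TPM in the middle-aged pair, and 12.3, 2.30 and 20.7 TPM in the old libraries. Its groups overlapped (old minus young 1.20 log2 units, SE 1.09, adjusted p = 0.839, middle minus young 1.53, SE 1.22, adjusted p = 0.703).

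Aldolase splits the 6-carbon sugar, and Aldoa, the form of muscle, was its only transcript listed above 0. It had 61.8, 60.5 and 53.8 TPM in young, 72.3 and 59.3 TPM in the middle-aged pair, and 78.5, 88.7 and 107 TPM in the old libraries. All 3 old libraries lay above the other 5, by a modest step of 0.62 log2 units against young (SE 0.32, 95% interval -0.09 to 1.33, 1.54-fold, limma adjusted p = 0.839). Its locus overlaps Fam57b. Tpi1, which interconverts the products of that split, had 16.3, 13.6 and 7.43 TPM in young, 25 and 10.2 TPM in the middle-aged pair, and 50.9, 7.29 and 54.6 TPM in the old libraries. Old libraries 1 and 3 were the highest and old library 2 the lowest of all, and the difference was 1.17 log2 units (SE 0.76, adjusted p = 0.839).

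Gapdh, the dehydrogenase of the next step, was the most abundant member in every library. It had 291, 186 and 270.0 TPM in young, 326 and 294 TPM in the middle-aged pair, and 209, 269 and 414 TPM in the old libraries. Its old and young libraries overlapped (0.22 log2 units, SE 0.33, adjusted p = 0.909, and -0.05 without old library 3), and middle minus young was 0.34 (SE 0.37, adjusted p = 0.776). Its 38 near-identical copies in the table together held 37 to 190 TPM. Pgk1, which makes the first ATP of the pathway, had 18, 17.3 and 0 TPM in young, 12.9 and 15.1 TPM in the middle-aged pair, and 13.9, 26.2 and 6.36 TPM in the old libraries. Its difference of 1.03 log2 units (SE 1.07, adjusted p = 0.866) was -0.37 without young library 3, and middle minus young, at 1.09 (SE 1.19, adjusted p = 0.782), was -0.32 without it. Its copies, mainly Pgk1-rs7, held 8.49 to 93.7 TPM, so the level of Pgk1 is uncertain.

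Pgam1, a mutase, had 44.6, 41.1 and 41.7 TPM in young, 38.9 and 34.5 TPM in the middle-aged pair, and 28.1, 53.3 and 41.2 TPM in the old libraries. Both middle-aged libraries lay just below the tight young group (-0.21 log2 units, SE 0.43, adjusted p = 0.908). Old libraries lay on both sides of it (-0.10, SE 0.39, adjusted p = 1, and 0.14 without old library 1). Eno1, the common enolase, had 14.8, 31.3 and 40.0 TPM in young, 54.3 and 21.6 TPM in the middle-aged pair, and 53.6, 37.6 and 56.2 TPM in the old libraries. Young library 3 reached into the old range, and the difference was 0.84 log2 units (SE 0.51, adjusted p = 0.839). Its copies, chiefly Gm4735, held 42.3, 56.1 and 20.3 TPM in the young and 21.8, 11.4 and 25 TPM in the old ones, and reads of Eno1 and its copies may be divided differently between libraries.

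Eno2, the neuronal enolase and a known hypoxia target, was listed at 0 in all 3 young libraries, at 0 and 11.5 TPM in the middle-aged pair, and at 5.27, 2.14 and 5.82 TPM in the old libraries. No fold is given against a group listed at 0 (limma adjusted p = 0.833). Eno3, the muscle enolase, had 24.2, 0 and 26.7 TPM in young, 5.59 and 16 TPM in the middle-aged pair, and 3.03, 0 and 17.4 TPM in the old libraries. Young libraries 1 and 3 were the highest and the difference was -1.08 log2 units (SE 1.39, adjusted p = 0.889), or -0.04 to -2.65 without 1 library. Pkm, pyruvate kinase, had 64, 69 and 51.3 TPM in young, 28.5 and 33.8 TPM in the middle-aged pair, and 34.4, 68.2 and 67.7 TPM in the old libraries. Middle-aged libraries stood below all others, at -0.95 log2 units against young (SE 0.44, adjusted p = 0.626). Old libraries 2 and 3 were level with the young ones and old library 1 was not (-0.17, SE 0.40, adjusted p = 0.974, and 0.15 without old library 1).

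**Figure D3:**
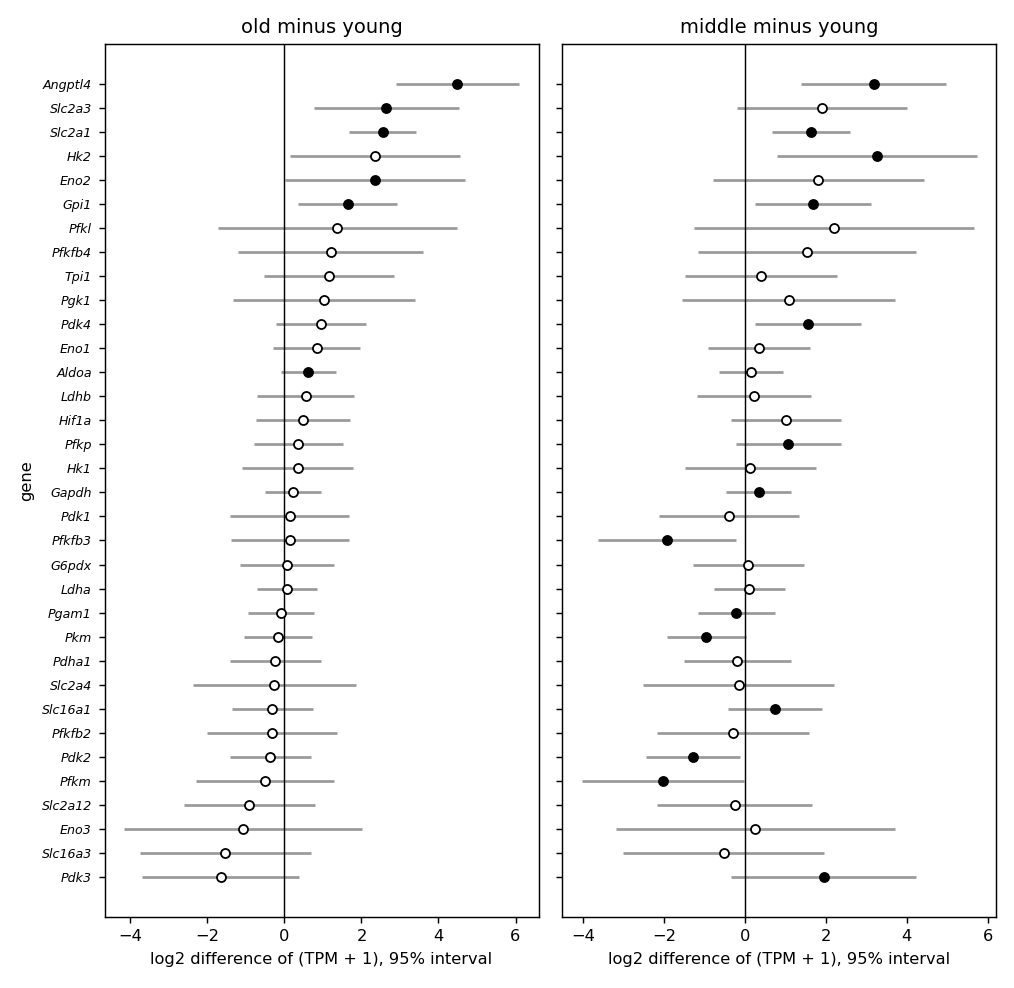
Difference in log2(TPM + 1) with its 95% interval from limma for the 34 tested genes, old minus young (left) and middle minus young (right), in the order of the left panel. Filled points are genes whose groups do not overlap. Young libraries of Angptl4, Eno2 and Pfkl were all listed at 0, so their points depend on the pseudocount. Most intervals on the left include 0, and those of Angptl4 and Slc2a1 lie farthest from it.

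Lactate dehydrogenase turns pyruvate into lactate and back. Ldha, the form of glycolytic tissue, had 83.3, 68.8 and 72.1 TPM in young, 96.2 and 67.4 TPM in the middle-aged pair, and 57.7, 78 and 104 TPM in the old libraries. Old libraries lay on both sides of the young ones: 0.06 log2 units (SE 0.35, 95% interval -0.72 to 0.84, adjusted p = 1), and -0.15 without old library 3. Ldhb, the heart form, had 46.7, 113 and 42.1 TPM in young, 134 and 37.5 TPM in the middle-aged pair, and 61.1, 147 and 78.9 TPM in the old libraries. It overlapped too (0.55 log2 units, SE 0.57, adjusted p = 0.867). Within-group spread set its order, with 1 library of each group at 113 TPM or more. Ldha made up 55 ± 14.9% of the pair's TPM in young (n = 3), 53 ± 15.96% in the middle-aged (n = 2) and 46.7 ± 11.3% in old libraries (n = 3). A copy of Ldhb, Gm5514, was listed at 0 in all young libraries and reached 90.8 TPM in old library 3.

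Lactate leaves or enters the cell through monocarboxylate transporters. Slc16a1 (MCT1) had 14.2, 16.1 and 15 TPM in young, 30.3 and 22.4 TPM in the middle-aged pair, and 15.5, 11.7 and 9.33 TPM in the old libraries. Middle-aged libraries were the highest of all, at 0.75 log2 units above young (SE 0.53, adjusted p = 0.652). Old libraries ran from below to within the young range (-0.31, SE 0.47, adjusted p = 0.911). Slc16a3 (MCT4), the export form of glycolytic muscle, had 2.22, 0 and 6.56 TPM in young, 0 and 3.05 TPM in the middle-aged pair, and 0 in all old libraries.

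The 4 Pdk kinases hold pyruvate dehydrogenase off. Their summed level was 83.6, 101 and 51.7 TPM in young, 143 and 112 TPM in the middle-aged pair, and 118, 103 and 67.3 TPM in the old libraries. The middle-aged pair lay above all young libraries, and old libraries overlapped the young ones. Pdk4, induced by fasting and fatty acids, had 28.1, 23.6 and 24.1 TPM in young, 84.3 and 69.6 TPM in the middle-aged pair, and 83.8, 72.1 and 19.7 TPM in the old libraries. Both middle-aged libraries and old libraries 1 and 2 stood near 3 times the young level, while old library 3 lay below it. Middle minus young was 1.57 log2 units (SE 0.59, 2.96-fold, limma adjusted p = 0.538). Old minus young was 0.95 (SE 0.53, adjusted p = 0.839), and 0.57 to 1.59 without 1 library. Pdk2, the widely expressed form, had 42.3, 43.7 and 18.9 TPM in young, 12.7 and 13.1 TPM in the middle-aged pair, and 23, 22.8 and 30.6 TPM in the old libraries. Middle-aged libraries lay below all others (-1.28 log2 units against young, SE 0.53, adjusted p = 0.592), and old overlapped young through young library 3 (-0.37, SE 0.47, adjusted p = 0.888).

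Pdk3 had 4.81, 22.2 and 2.74 TPM in young, 32.8 and 26.9 TPM in the middle-aged pair, and 0, 1.35 and 5.86 TPM in the old libraries. Middle-aged libraries were above all others, by 1.95 log2 units against young (SE 1.03, adjusted p = 0.626). Old minus middle it was -3.61 (SE 1.03, adjusted p = 0.595), and old minus young -1.66 (SE 0.92, adjusted p = 0.839). The comparisons of Pdk3, Pfkfb3, Slc2a1 and Angptl4 between old and middle-aged were chosen after their values were seen. Pdk1, a hypoxia target, had 8.35, 11.8 and 6 TPM in young, 13.6 and 2.53 TPM in the middle-aged pair, and 11.6, 6.36 and 11.2 TPM in the old libraries, with full overlap (0.14 log2 units, SE 0.70, adjusted p = 1, and -0.07 without young library 3). As a share of Pdk TPM, Pdk2 had 50.6%, 43.2% and 36.5% in the young and 8.85% and 11.7% in the middle-aged libraries, while Pdk4 had 33.7%, 23.3% and 46.6% against 58.8% and 62.1%. In old libraries 1, 2 and 3, Pdk4 had 70.8%, 70.3% and 29.3%. Pdha1, the kinases' target, had 30.9, 14.6 and 37.8 TPM in young, 34.8 and 14.4 TPM in the middle-aged pair, and 16, 26.4 and 24.3 TPM in the old libraries. Its groups overlapped (-0.24 log2 units, SE 0.54, adjusted p = 0.969, and 0.03 without young library 3).

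**Figure D4:**
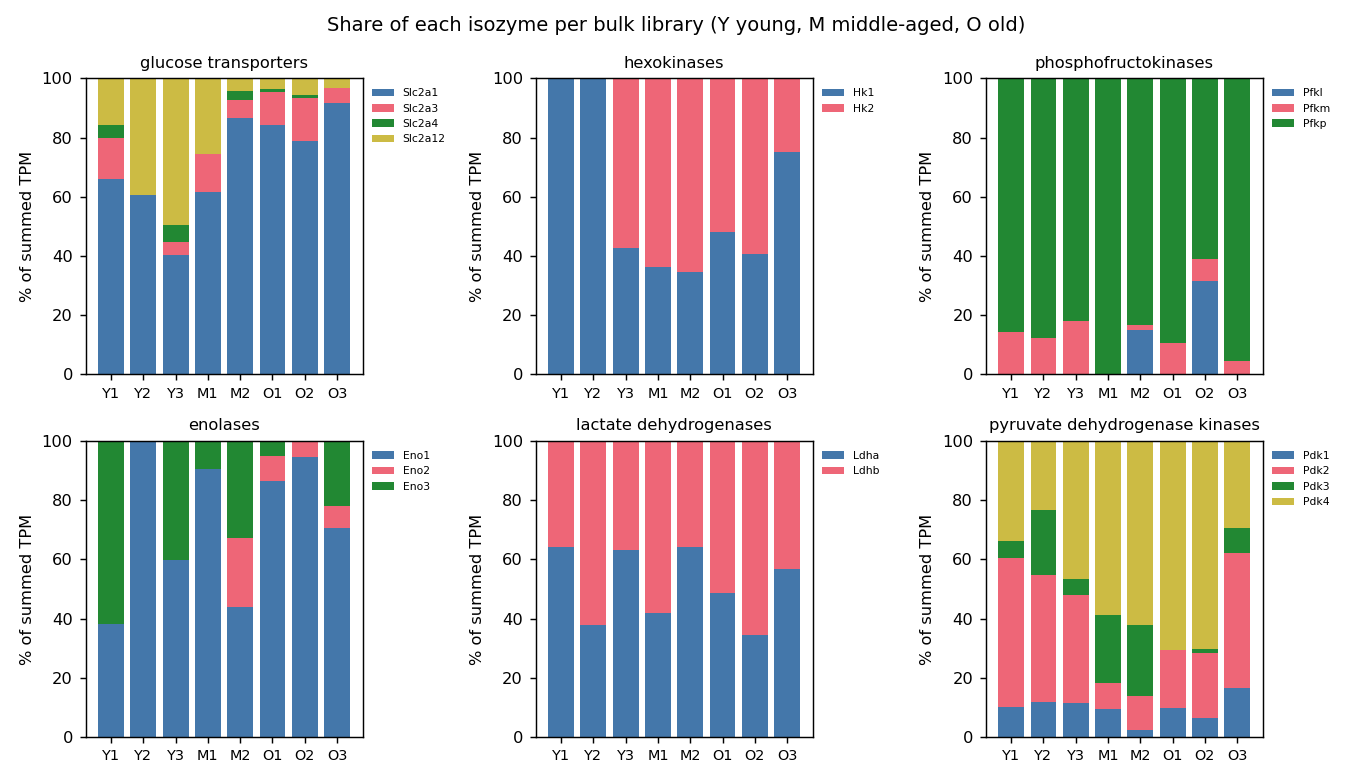
Share of each isozyme in the summed TPM of its family (stacked bars, 0 to 100%) for 6 families in each of the 8 bulk libraries. Slc2a1 holds at least 78.8% of the transporter bar in the 3 old libraries and at most 66.0% in the 3 young ones, while the lactate dehydrogenase bars show no order by age.

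Angptl4 is a secreted inhibitor of lipoprotein lipase, induced by fasting, fatty acids and hypoxia (chromosome 17, 33773750 to 33781830, minus strand). It was listed at 0 in all 3 young libraries, at 7.46 and 8.82 TPM in the middle-aged pair, and at 22.9, 35.9 and 11.8 TPM in the old libraries. The 3 groups did not overlap. No fold is given against a group listed at 0. By limma the unadjusted p was 8.01e-05 for old against young, eighth of all tested genes, with an adjusted p of 0.225 and a range of 0.128 to 0.749 over the alternatives. The fitted difference depends on the pseudocount, from 2.42 to 7.74 log2 units between pseudocounts of 5 and 0.1 TPM. Old minus middle, it was 1.30 log2 units (SE 0.81, adjusted p = 0.724).

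Hif1a encodes the factor that induces Slc2a1, Pdk1 and Eno2 when oxygen is low, chiefly through the stability of its protein. It had 10.2, 22.4 and 39.7 TPM in young, 36 and 52.8 TPM in the middle-aged pair, and 20.4, 28.8 and 44.8 TPM in the old libraries. Old and young libraries overlapped (0.48 log2 units, SE 0.55, adjusted p = 0.877, and -0.003 without young library 1). Middle minus young was 1.02 (SE 0.61, adjusted p = 0.626). G6pdx, which draws glucose 6-phosphate into the pentose phosphate pathway, had 13.2, 22.1 and 8.58 TPM in young, 11.6 and 18.3 TPM in the middle-aged pair, and 9.58, 19 and 16 TPM in the old libraries. It overlapped throughout (0.07 log2 units, SE 0.56, adjusted p = 1). The sign of that difference turned on leaving out young library 3 (-0.24), or else old library 2 (-0.12) or 3 (-0.01).

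Added up, the 16 enzymes from hexokinase to pyruvate kinase had 556 ± 63.9 TPM in the young, 695 ± 23.2 in the middle-aged and 720.4 ± 182 in old libraries, with old library 3 at 928 TPM and old library 1 at 584 TPM. Old library 1 lay below young library 1 (627 TPM), so these sums overlapped, unlike those of the transporters. Without Gapdh, the other 15 enzymes had 335, 317 and 269 TPM in young, 386 and 385 TPM in the middle-aged pair, and 375, 380.3 and 514 TPM in the old libraries. In that sum all later libraries lay above all young ones. Its leave-out of Gapdh was chosen after seeing the values.

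Genes around the pathway were taken from 7 lists, which hold other transporters and hexokinases, other glycolytic and gluconeogenic enzymes, glycogen, pentose phosphate, mitochondrial pyruvate entry, hypoxia, and the response to glucose and fasting. Old against young, limma called 0 genes in any list. Beside the list counts below, 49.6% of all tested genes were higher, with a median of 0. At unadjusted p under 0.05 by limma, 3.72% of all genes were higher and 2.17% lower. Of the hypoxia list, 15 of 23 tested genes were higher (median 0.43 log2 units), with 2 at unadjusted p under 0.05. Its median was 0.78 without young library 1 and 0.65 without old library 3. Bhlhe40, a clock repressor that hypoxia induces, had 138, 82.9 and 101 TPM in young, 331 and 348 TPM in the middle-aged pair, and 310.5, 208 and 232 TPM in the old libraries (1.22 log2 units, SE 0.31, adjusted p = 0.544). Ndrg1, a stress gene, had 41.8, 59 and 39.8 TPM in young, 79.7 and 135 TPM in the middle-aged pair, and 84, 150.5 and 100.4 TPM in the old libraries (1.21, SE 0.38, adjusted p = 0.707). Both lay above all young libraries at each later age. Car9, a carbonic anhydrase and strict hypoxia target, went the other way: 3.13, 42.2 and 0 TPM in the young and 0 in all 5 later libraries. Egln2, an oxygen sensor, had 9.65, 0 and 0 TPM in the young and 20.7, 6.75 and 5.88 TPM in the old libraries.

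Of the glucose and fasting list, 18 of 24 tested genes were higher (median 0.44, or 0.25 without young library 3 and 0.24 without old library 2). Lpl, the lipase that Angptl4 inhibits, lay lower in all old libraries, at 61.4, 104 and 120.0 TPM in young against 34.5, 59.5 and 43.7 TPM (-1.02, SE 0.46, adjusted p = 0.833). Mlx, the partner of ChREBP, had 0, 0 and 10.6 TPM in the young and 12.4, 5.86 and 5.46 TPM in the old libraries. Cd36, a fatty acid transporter, had 8.78, 8.15 and 8.90 TPM in the young and 1.62, 1.84 and 9.50 TPM in the old libraries.

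Glycogen genes pointed in both directions, with 10 of 17 higher (median 0.37) and 1 higher and 2 lower at unadjusted p under 0.05. That median was 0.22, 0.17, 0.21, 0.07 and 0.16 without young library 1, young library 2, old library 1, old library 2 and old library 3, in that order, and 0.15 with a pseudocount of 5. Gys1, glycogen synthase of muscle, was listed at 0 in all young libraries, at 19.6 and 9.52 TPM in the middle-aged pair, and at 2.22, 8.10 and 6.71 TPM in the old libraries. Pygm, which breaks glycogen down, had 40.2, 27.7 and 30.5 TPM in young against 10.6, 0 and 15.1 TPM in the old libraries (-2.55 log2 units, SE 1.01, adjusted p = 0.808). Phkb, a subunit of its activating kinase, had 31.4, 21.9 and 27.6 TPM against 2.19, 8.78 and 21.3 TPM (-1.64, SE 0.67, adjusted p = 0.808). Pygb, the brain form of the breakdown enzyme, had 7.73, 0 and 1.42 TPM in the young and 7.28, 16.9 and 7.59 TPM in the old libraries.

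At the mitochondrial pyruvate carrier, whose subunits work as a pair, Mpc1 had 0, 0 and 7.15 TPM in young, 72.6 and 27.8 TPM in the middle-aged pair, and 13, 24.3 and 6.74 TPM in the old libraries. Mpc2 had 70.3, 101 and 106 TPM in young, 79.2 and 27.3 TPM in the middle-aged pair, and 53.7, 39 and 27.9 TPM in the old libraries (-1.21 log2 units, SE 0.46, adjusted p = 0.808). Its old libraries all lay below its young ones, whereas those of Mpc1 overlapped. Bsg, which carries MCT1 to the membrane, had 56.4, 71.4 and 25 TPM in the young and 56.9, 69.9 and 152 TPM in the old libraries, and Slc16a7 stayed at or below 7.23 TPM. Of that list 6 of 11 were higher (median 0.16), with 1 higher and 1 lower at unadjusted p under 0.05.

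Of the pentose phosphate list 6 of 8 were higher (median 0.32). Pgd, its second dehydrogenase, had 9.53, 2.81 and 10.5 TPM in the young and 26.4, 11.4 and 12.2 TPM in the old libraries without overlap (1.10 log2 units, SE 0.63, adjusted p = 0.839). Rpe had 8.39, 0 and 7 TPM in the young and 6.71, 21.9 and 10.8 TPM in the old libraries, Rpia at most 10.2 TPM, and H6pd 26.6 to 72.2 TPM with overlap. The other transporters and hexokinases split 4 and 4 (median 0.26), and the other glycolytic enzymes 10 and 7 (median 0.46), with 0 genes at unadjusted p under 0.05 in these lists and in the pentose phosphate one. Named by the smallest p, Slc2a13, Slc2a6, Slc2a10 and Slc2a2 differed by -1.37, 1.53, 0.92 and -0.70 log2 units, and Pfkfb1, Pgk2 and Eno4 by -1.77, -1.44 and -1.32. Each of these 7 was below 5 TPM in most libraries.

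In the wells, glycolytic genes were found mostly where many genes were found. At least 1000 genes reached 1 TPM in 54 of 64 young but only 7 of 31 old wells, and 22 of 31 old wells held no member at all. Mitochondrially encoded RNA had a median of 54.12% and 65.7% of TPM in young and old wells under 1000 genes, and of 8.08% and 11.48% in the others. Per well, the median number of members at 1 TPM or more was 6 in young and 0 in old wells. Among wells with at least 1000 genes it was 7 and 6. Young and old wells carried different library index sets and came from 1 mouse each, so age, mouse and index cannot be told apart, and no test was made. Intervals are exact Clopper-Pearson 95% intervals and cover counting error between wells only.

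Gapdh was the member found in most young wells, and it tied with Aldoa in the old ones: it was in 50 of the 54 young wells with at least 1000 genes (92.6%, interval 82.1% to 97.9%) and in 6 of the 7 old ones (85.7%, 42.1% to 99.6%). Aldoa was in 40 young wells (74.1%) and 6 old ones, and Pkm with 35 (64.8%) and 3. Hk2 and Eno1 were each found in 26 young wells (48.1%, 34.3% to 62.2%), and in 3 and 2 old ones. Ldha was found in 24 (44.4%) and 2. Pgk1 was found in 18 young wells and in 0 of 7 old ones (exact interval up to 41%, and 42.9% by the limit of 3 wells for a count of 0). Such limits cover wells in which a gene reached 1 TPM, not cells that express it. Over all wells, the intervals of these 7 genes did not overlap between young and old. Gapdh, for example, was in 81.2% of 64 young and 19.4% of 31 old wells, and Aldoa in 64.1% and 22.6%. How many genes of the whole table separated in this way was not counted. Of the 31 old wells, 24 held under 1000 genes, with a median of 46, so this separation is not read as a result about these members. Among wells with at least 1000 genes, the young and old intervals of all 35 members overlapped.

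**Figure D5:**
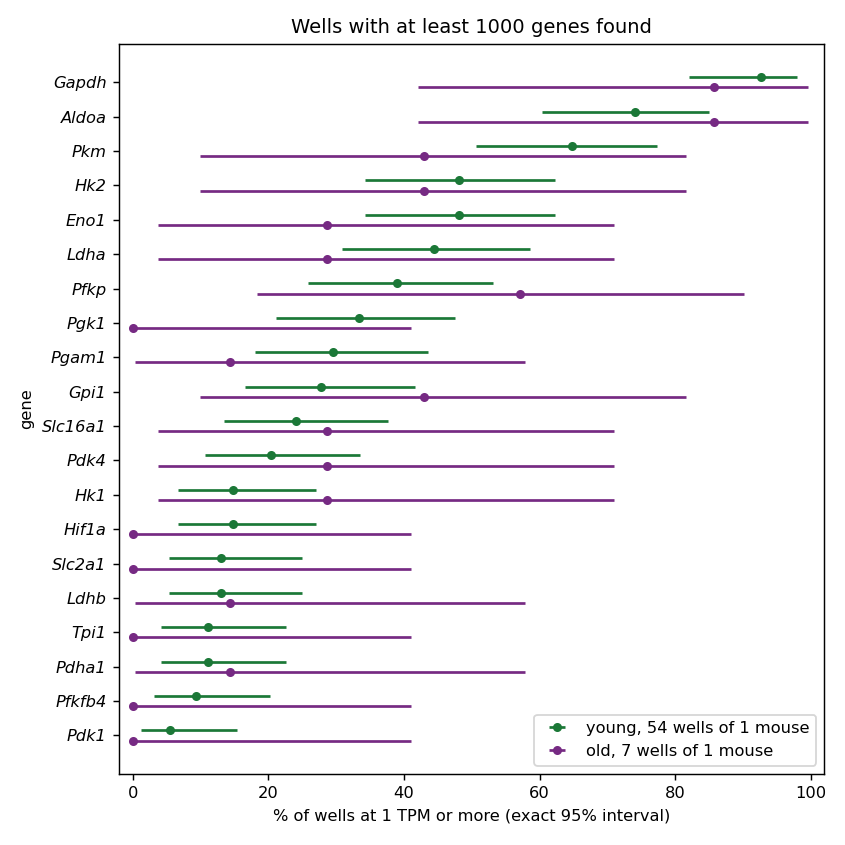
Share of wells with at least 1000 genes in which a gene reached 1 TPM (points, with exact 95% intervals), for the 20 genes found in most young wells, in 54 young and 7 old wells. The intervals of young and old overlap for every gene, and those of the 7 old wells are wide.

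Slc2a1, so different between the bulk ages, was rare in wells: 7 of 54 young wells (13.0%, interval 5.37% to 24.9%) and 0 of 7 old ones (exact interval up to 41%). The wells therefore do not show whether its bulk difference lies in the stem cells. Angptl4 was in 1 of 54 and 0 of 7 wells. Aldoc, Eno2, Pdk3 and Pfkfb3 were found in 0 wells of either age. Pax7 was found in 38 of the 54 young and 5 of the 7 old wells, and Myf5, the myogenic factor of these cells, in 50 and 7.

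Hk2 stood out by its level in wells. Where found in the 26 young wells, its median was 505.6 TPM and its highest value 3090 TPM, whereas the 3 young bulk libraries had 0, 0 and 12.4 TPM. The tables were normalized separately, so that contrast is no measured difference. In 16 of the 54 young wells it reached 100 TPM or more, and in 0 of the 7 old ones, where its highest value was 17.2 TPM. Hk1 and Hk2 were found together in 4 of the 54 young wells, Hk1 alone in 4, Hk2 alone in 22 and neither in 24. Hk2 was thus the hexokinase usually seen in young wells, although Hk1 was the only one listed above 0 in young bulk libraries 1 and 2. Ldha and Ldhb were found together in 4 wells, Ldha alone in 20 and Ldhb alone in 3. Pfkp was found without Pfkm in 21 wells and Pfkm without Pfkp in 2.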

How the data were processed

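Both tables hold TPM as deposited by the authors. STAR and mm10 are named in the submitters' processing notes. Counting tool, annotation and strandedness: not given in the sources used here. TPM carry no read depth. Rows with an Ensembl gene ID were kept (43283 of 45798 in bulk, with 92 spike-in and 2423 other entries left out). Groups followed the labels. Bulk differences were fitted over all 8 libraries with limma 3.58.1 (R 4.3.3) on log2(TPM + 1), for genes whose mean reached 1 TPM, with an intensity trend, two-sided moderated tests and Benjamini-Hochberg adjustment over 22492 genes per comparison (threshold 0.05). Code was tested on simulated data. Single values used exact permutation tests. Near-identical copies align at 95% identity or more over at least 300 bases (minimap2 2.31-r1302, GENCODE vM21). Every member was named; library values and differences were given for means of at least 5 TPM or groups without overlap, the middle-aged difference for separated groups or 1 log2 unit, and 4 genes per surrounding list by smallest p, of which 2 are not reported here. Members and lists were chosen with earlier results of these data known.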

Additional observations from a re-analysis of the deposited data

How the results depend on the processing

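No member was called under any alternative in any comparison. Of 30 members compared between old and young, 17 kept their direction throughout, and 13 did not, in each case on leaving out 1 library. With values above 0 in all 8 libraries, 22 members were tested, so fewer could count. There, 3 members lay higher in old than young without overlap, against 8.38% of all genes. By sign, 14 were higher in middle-aged than young (median 0.145, beside 0.043 over all genes tested). In old against middle-aged, 1 member lay lower without overlap, against 12.9% of all genes, and the members' median was 0.043. That last median was 0.011 without mitochondrial genes. Replicate numbers did not pair the libraries (r = -0.012 to 0.005). With a replicate block the median was 0.43 for middle minus young and 0.096 for old minus middle, and 0 members were called.

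Leaving out 1 library gave these ranges. Old minus young: median 0.04 to 0.414, and 0 to 4 lower without overlap (4 without young library 2, against 9.13% of all genes). For the largest middle-aged counts below, the share of all genes without overlap was larger too. Against young it was 36.4% higher without middle-aged library 2 and 16.5% lower without middle-aged library 1. For old against middle-aged it was 20.9% higher and 26.8% lower, both without middle-aged library 1. Middle minus young: median 0.156 to 0.611, 9 to 18 higher and 5 to 12 lower without overlap, and 0 to 1 pathway gene called (Sesn1 without middle-aged library 1, Ankrd37 without middle-aged library 2). Old minus middle: median -0.082 to 0.201, 7 to 15 higher and 3 to 10 lower without overlap, and 0 to 1 pathway gene called (Ankrd37). Without a middle-aged library, the remaining one is assumed to vary like the other groups, and 557 to 884 genes in all were then called in these comparisons, but no member.

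For single members, old minus young, the ranges were: Hk1 -0.248 to 0.654, Pfkp -0.132 to 0.656, Gapdh -0.045 to 0.448, Pgk1 -0.373 to 1.75, Pgam1 -0.311 to 0.14, Pkm -0.33 to 0.154, Ldha -0.149 to 0.272, Pdk1 -0.072 to 0.393, Pfkfb2 -0.833 to 0.432, Pfkfb3 -0.226 to 0.847, G6pdx -0.238 to 0.396, Hif1a -0.003 to 0.926 and Pdha1 -0.63 to 0.028. Middle minus young, Pgk1 ranged from -0.321 to 1.802, and Pfkl (0.0 to 4.402) and Eno2 (0.0 to 3.642) rest on middle-aged library 2.

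List medians, old minus young: other transporters and hexokinases -0.342 to 0.875 leaving out 1 library, -0.037 with a pseudocount of 5, -0.106 with no filter, -0.224 above 0 in all 8 libraries and -0.044 without mitochondrial genes. Other glycolytic enzymes ranged from -0.162 to 0.458 and pentose phosphate from -0.095 to 0.629. Pyruvate entry ranged from -0.061 to 0.401, and was -0.027 for genes whose mean reached 5 TPM or above 0 in all 8 libraries. The cause of these changes was not tested. The median of members per old well was 6 in wells with at least 1000 genes and 0 over all. Depth cannot be read from TPM, so values at 0 carry no detection limit.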
